A study of Mus musculus with 6 samples.

Results

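Cigarette smoke exposure of ICR mice was examined in lung RNA from 2 arrays, 1 labelled as a control mouse and 1 as a smoked mouse, among the 6 arrays of the series. The other 4 arrays are a control and a smoked lung of each of the C57 and DBA strains, and they serve here only as a comparison. Smoked animals of the 3 strains received smoke from 3 cigarettes per day on 5 days per week for 4 weeks, and the control lungs are labelled normal. The study asked how far the lungs of different mouse strains resist cigarette smoke.

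ICR is an outbred stock, so that 2 ICR mice can differ in genotype as well as in exposure. The strains are named only as C57, DBA and ICR in the labels, which give no age or sex and do not say whether an array holds RNA of 1 mouse or of a pool. With 1 control and 1 smoked array, exposure, individual and array cannot be told apart in the ICR pair. Differences between the 2 arrays are therefore described with no test, and the C57 and DBA pairs show how far 2 arrays of a strain lay apart elsewhere in the series.

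Tobacco smoke carries polycyclic aromatic hydrocarbons that bind the aryl hydrocarbon receptor (AhR), a ligand-activated transcription factor. The receptor enters the nucleus, pairs with ARNT and binds DNA at xenobiotic response elements with the core GCGTG, upstream of P450 genes such as Cyp1a1. Oxidants in smoke act through another route, in which NRF2 is released from KEAP1 and drives genes of glutathione and NADPH supply. Inbred mouse strains are known to differ in the affinity of AhR for its ligands, and the labels do not give the Ahr genotype of the ICR mice.

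The promoters of Cyp1a1 and Cyp1b1 are shown because the AhR genes carry the largest ICR difference. Each runs 5′ to 3′ on the gene's strand from 250 bases before to 50 bases after the start (RefSeq, GRCm38.p6). Capitals mark the core letters GCGTG, or CACGC where they lie on the other strand. Cyp1a1 is at chr9:57697363-57697662 on the + strand and Cyp1b1 at chr17:79715012-79715311 on the - strand.
Cyp1a1: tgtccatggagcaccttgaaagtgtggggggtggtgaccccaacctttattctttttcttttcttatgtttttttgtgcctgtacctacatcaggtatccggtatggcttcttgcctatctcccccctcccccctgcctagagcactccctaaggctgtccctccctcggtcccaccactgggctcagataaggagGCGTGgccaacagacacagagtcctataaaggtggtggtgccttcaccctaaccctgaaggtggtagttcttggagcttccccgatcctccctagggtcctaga
Cyp1b1: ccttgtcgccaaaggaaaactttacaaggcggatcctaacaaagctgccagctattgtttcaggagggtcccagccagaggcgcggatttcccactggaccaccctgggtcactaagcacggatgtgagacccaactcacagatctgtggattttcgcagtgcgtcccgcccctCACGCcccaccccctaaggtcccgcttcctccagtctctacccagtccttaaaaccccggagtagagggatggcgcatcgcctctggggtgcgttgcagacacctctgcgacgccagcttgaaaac
Each window held 1 match on the 2 strands searched, 54 bases before the start of Cyp1a1 and 76 bases before that of Cyp1b1. The same letters occur in 32.4% of 32851 promoters of this length, so a match is a description of the window and not a binding site. Aldh3a1 was not among the promoter entries used here.

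The ICR smoked array differed from the other 5 arrays in signal and in control ratios. Its median deposited intensity over 12422 probe sets was 26.02, against 52.53 on the ICR control and 52.53 to 85.05 over the other 5 arrays. The 9 spiked hybridization controls, bacterial and phage transcripts added to the labelled sample, had a geometric mean of 419.7 on the control array and 496.6 on the smoked array, 1.18 times as much. The 3′ to 5′ intensity ratio of beta-actin, a sign of how far toward the 5′ end of transcripts the labelling reached, was 1.63 on the ICR control and 4.75 on the ICR smoked array, with 1.46 to 2.75 over the other 5 arrays. The same ratio of Gapdh was 1.11 on the ICR control and 2.39 on the smoked array. The part of this signal and RNA quality difference in the gene differences below was not tested, and all arrays were brought to 1 distribution before any comparison.

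**Figure D1:**
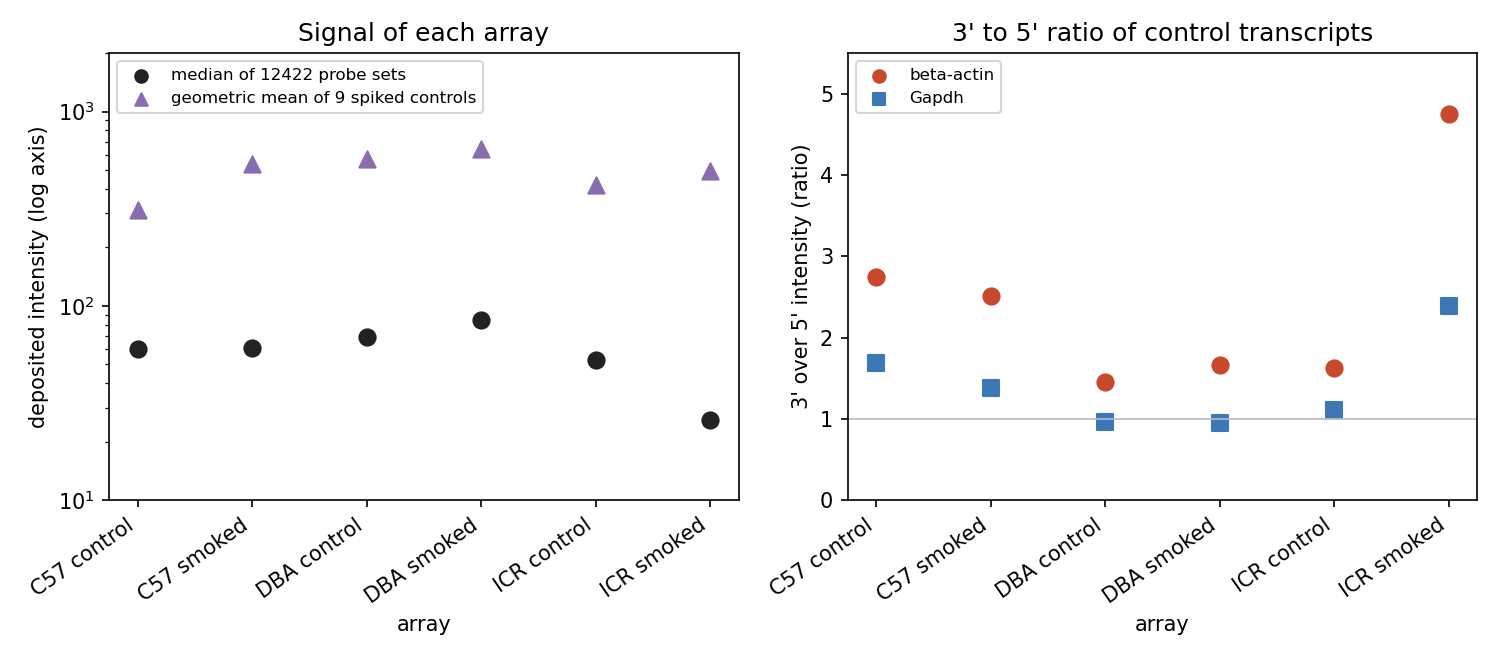
Signal and control ratios of the 6 arrays, 1 point per array and measure. Left, the deposited intensity on a log axis as the median of 12422 probe sets (circles) and the geometric mean of 9 spiked controls (triangles). Right, the 3′ over 5′ intensity ratio of beta-actin (circles) and Gapdh (squares). The ICR smoked array has the lowest median, 26.02, and the highest 3′ to 5′ ratios, 4.75 and 2.39.

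The 2 ICR arrays read as lung. Scgb1a1, the secretory protein of club cells, had a deposited intensity of 7737 on the control and 7572 on the smoked array, and Sftpc, the surfactant protein of alveolar type II cells, 7184 and 7359. Ager, a receptor abundant on alveolar type I cells, read 3555 and 3061, and Cdh5, the endothelial cadherin, 2284 and 1269. The probe sets of Sftpd (13.4 and 9.17) and Pecam1 (12.1 and 25) were dim, although both genes are textbook lung genes. Liver markers summed to 60.03 on the control and 32.8 on the smoked array over 3 genes, and squamous epithelium markers to 70.5 and 61.0 over 3 genes. The 4 skeletal muscle markers summed to 88.0 and 45.7. Other cell types were present: cardiac muscle markers, known from the pulmonary veins, summed to 3319 and 1486 over 4 genes, erythroid markers to 8223 and 6519 over 2, and neutrophil markers to 2685 and 915 over 4.

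Differences are smoked minus control on the scale of log2 of the deposited intensity plus 8.05, quantile normalized over the 6 arrays, and a fold is 2 to that power. On this scale 484 of 12422 probe sets were at least 2-fold higher on the ICR smoked array (3.9%), and 585 were at least 2-fold lower (4.71%). With arrays set to a common median in place of the quantiles, 812 were higher and 324 lower. The same count in either direction was 408 for the C57 pair (3.28%) and 522 for the DBA pair (4.2%), against 1069 for ICR. Among the 7453 probe sets brighter than the 40th percentile of mean signal, 209 were higher and 275 lower in ICR, against 58 and 33 in C57 and 51 and 178 in DBA. The median size of a difference in these brighter probe sets was 0.34 in ICR, 0.19 in C57 and 0.20 in DBA. The ICR pair thus lay wider apart over the whole array, as its correlation over these probe sets also shows, 0.931 against 0.972 for C57 and 0.950 for DBA.

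**Figure D2:**
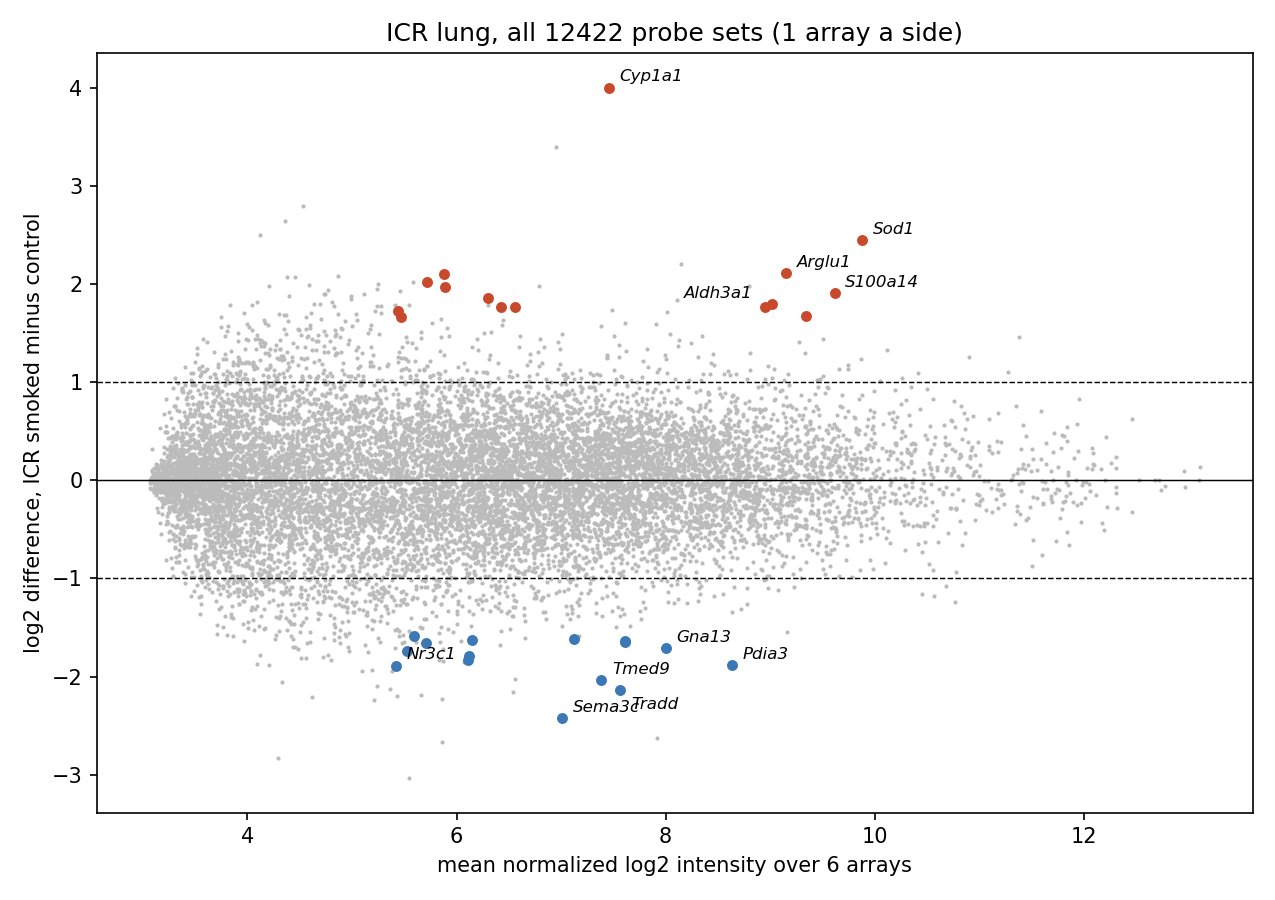
Difference between the ICR smoked and control arrays (vertical axis, log2) against the mean normalized log2 intensity over 6 arrays (horizontal axis) for 12422 probe sets. Coloured points are the 15 genes with the largest differences in each direction by the rule for named genes, and dashed lines mark 2-fold. Cyp1a1 stands at 4.00 and Sema3c at -2.43.

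Cyp1a1, the P450 enzyme that oxidizes polycyclic aromatic hydrocarbons and the best known AhR target, was the gene with the largest difference in ICR. Its deposited intensity was 36.1 on the ICR control and 368 on the ICR smoked array. It read 58.8 without and 2552 with smoke in C57, and 16.9 and 385 in DBA. All 3 smoked arrays thus lay above all 3 control arrays. After normalization the ICR difference was 4.00, or 16.0-fold, between 5.13 in C57 and 3.69 in DBA, and it stayed between 3.44 and 4.24 under the other scalings and constants tried, with 3.09 on unscaled arrays. The ICR difference was 0.40 below the mean of C57 and DBA with a standard error of 0.62 (limma, Benjamini-Hochberg adjusted p = 0.77). A second Cyp1a1 probe set read 23.4 on the ICR control and 3.59 on the ICR smoked array, a difference of -1.16, so the higher level rests on the brighter probe set alone.

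Aldh3a1, an aldehyde dehydrogenase that is also an AhR target, was higher on the smoked array of each strain as well. Its deposited intensity was 214 on the ICR control and 409 on the ICR smoked array, 586 and 1557 in C57, and 188 and 1208 in DBA. The normalized difference was 1.80 in ICR, 1.42 in C57 and 2.40 in DBA, with a dimmer second probe set at 1.39 in ICR. After normalization the 3 smoked arrays, at 9.69 to 10.37 on the log2 scale, lay above the 3 control arrays, at 7.39 to 8.94, while on the deposited scale the ICR smoked array lay below the C57 control.

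Cyp1b1, the P450 of the same family that also activates hydrocarbons, differed less in ICR than in the other strains. It read 35.1 on the ICR control and 52.1 on the ICR smoked array, 124 and 638 in C57, and 47.1 and 319 in DBA. The normalized differences were 1.41 in ICR, 2.26 in C57 and 2.33 in DBA, and a dim second probe set gave -0.55 in ICR. The gap of -0.88 between ICR and the mean of the other strains had a standard error of 0.32 and was not called (limma, adjusted p = 0.33).

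Nqo1, a quinone reductase under AhR and NRF2 control, read 19.0 on the ICR control and 15.9 on the ICR smoked array. It read 36.2 and 120 in C57, and 16.4 and 95.6 in DBA. The normalized difference was 0.53 in ICR, below 2-fold, against 1.44 in C57 and 1.75 in DBA, and the gap of -1.06 between ICR and the others was not called (standard error 0.42, limma adjusted p = 0.34). The ICR value stayed between 0.32 and 0.67 under the scalings and constants tried. With no scaling it was -0.18, where the median of all genes was -0.75. A second, dim probe set gave 0.47 in ICR, 0.78 in C57 and 0.99 in DBA.

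Among the partners, Ahr itself read 388 on the ICR control and 131 on the smoked array, a normalized difference of -0.57, with 0.16 in C57 and 0.26 in DBA. Tiparp, a poly-ADP-ribosyltransferase that represses AhR, differed by 0.01, and Arnt by -0.26. The AhR repressor Ahrr read below the added constant on both ICR arrays. Over the AhR list, 3 of 10 measured genes were at least 2-fold higher in ICR and 0 were lower, against 3.55% higher and 4.18% lower over all 8251 genes. The median of the 10 was 0.06 in ICR, 0.62 in C57 and 0.97 in DBA, with a median of 0.01 over all genes in ICR. The ICR median depended on the scaling: it was 0.67 with a common median and 0.58 relative to all genes with no scaling. The C57 and DBA medians were taken on the quantile scale alone, so the distance between strains under the other scalings was not tested.

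**Figure D3:**
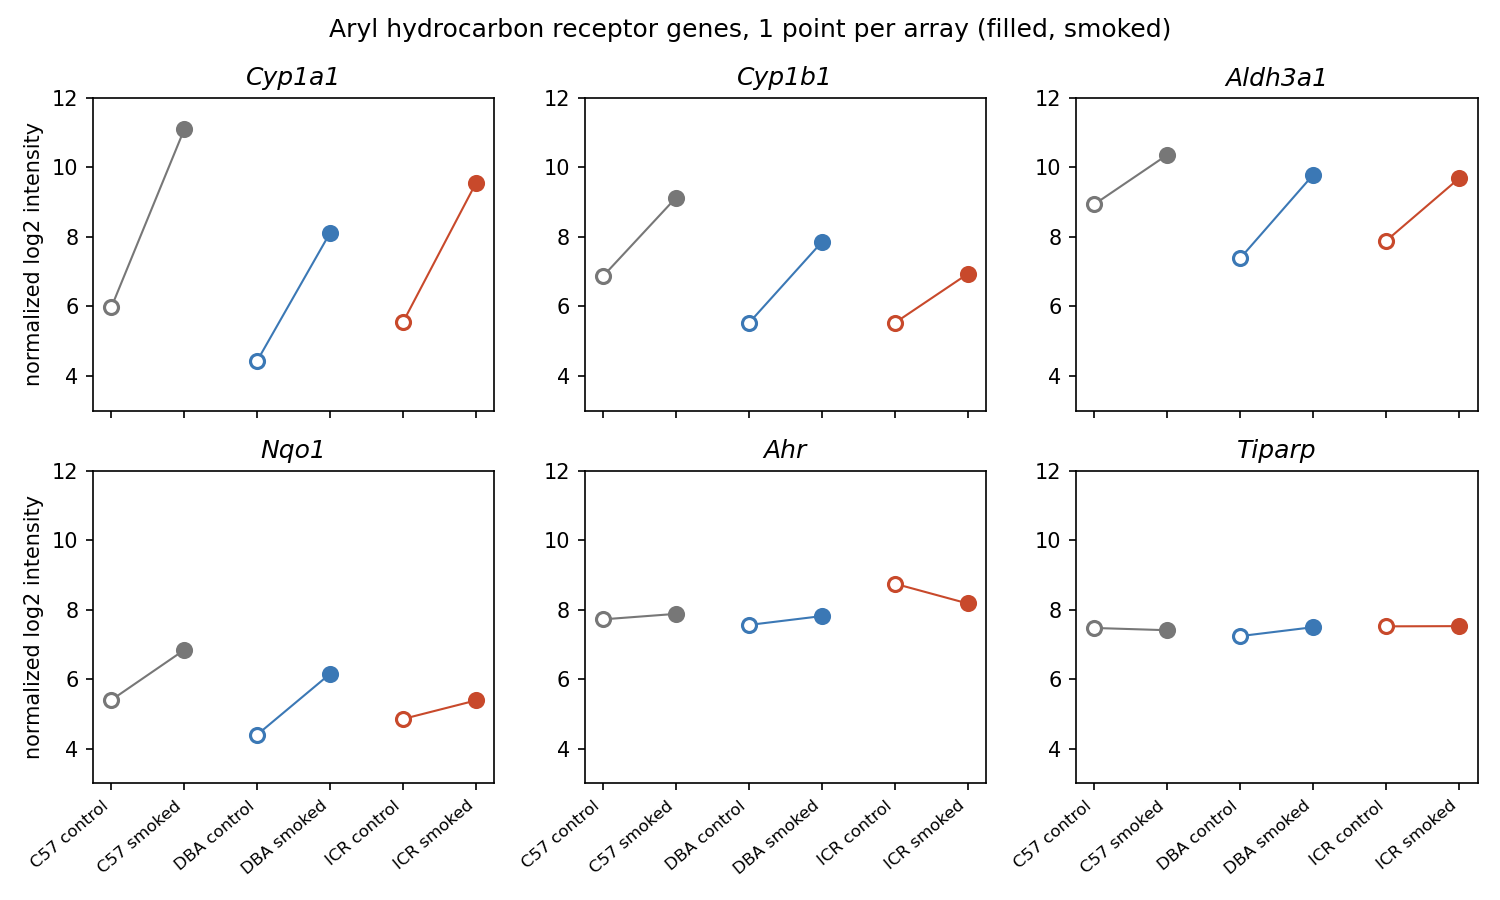
Normalized log2 intensity of 6 AhR genes on the 6 arrays, open circles for control, filled for smoked, with a line joining the 2 arrays of a strain. Cyp1a1 is higher by 4.00, Aldh3a1 by 1.80 and Cyp1b1 by 1.41 on the ICR smoked array, while Nqo1, Ahr and Tiparp lie within 2-fold of the ICR control.

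Taken by the brightest probe set of each gene, the genes of the NRF2 route lay within 2-fold in ICR, with 1 exception among those measured. Of 23 measured genes for glutathione, thioredoxin and NADPH supply, 0 were at least 2-fold higher and 1 was lower, Keap1, the inhibitor of NRF2, at -1.06. Keap1 was dim, at 14.7 on the control and 1.91 on the smoked array, below the added constant of 8.05, so that its fitted size depends on the constant. The list's median was 0.02 in ICR, 0.24 in C57 and 0.37 in DBA. Txn1, thioredoxin, read 2551 and 1464 (-0.15), and Fth1, ferritin heavy chain, 3949 and 2173 (-0.25). A dimmer second probe set of Fth1 read 634 and 684 and passed 2-fold in the other direction, at 1.01 in ICR, with 0.05 in C57 and 0.04 in DBA. Of 18 glutathione S-transferases, 0 passed 2-fold in either direction and the median was 0.00. Gstm1 stood at 0.48 in ICR, with 0.26 at a second probe set, and Gstm2 at -0.98, with 0.84 at a second probe set.

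Sod1, the cytosolic superoxide dismutase (chromosome 16), was the 1 antioxidant enzyme of 14 that was at least 2-fold higher. It read 123 on the ICR control and 373 on the ICR smoked array, a difference of 2.45 or 5.47-fold. The other 4 arrays read 1159 to 2932, so the ICR control was the lowest of the 6 and the ICR smoked array remained below every C57 and DBA array. Catalase (Cat) read 451 and 119, a difference of -0.91, with a dimmer second probe set at 0.44. The difference of Sod1 exceeded the mean of the other strains by 2.48 with a standard error of 0.34, and the limma test did not call it (adjusted p = 0.29).

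A low ICR control, as for Sod1, was common among the 15 genes with the largest higher values, which run from 1.67 to 4.00. The ICR control was the lowest of the 6 arrays for 13 of the 15, and the ICR smoked array the highest for 6. Arglu1, a nuclear protein of transcription and splicing, read 121 on the ICR control, 285 on the ICR smoked array and 793 to 1156 elsewhere, a difference of 2.11. S100a14, an S100 protein of epithelia, read 280 and 577 in ICR and 780 to 1380 elsewhere (1.91), and its dim second probe set gave 0.05. Pptc7, a mitochondrial phosphatase, read 277 and 475 in ICR and 662 to 1115 elsewhere (1.67). These ranges are of unscaled intensities. After normalization the ICR smoked array was the highest of the 6 arrays for Pptc7, at 9.93. For S100a14 it lay within the C57 and DBA range (10.18, against 9.48 to 10.20), and for Arglu1 below it (9.22, against 9.50 to 9.91). Bphl, a serine hydrolase, read 181 and 330 in ICR (1.77), while its 4 other probe sets gave -0.13, -0.12, 0.27 and 0.67.

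The remaining higher genes had a deposited intensity of 8.70 to 37.3 on the ICR control. Zfp787, a zinc finger protein, read 10.1 on the ICR control and 34.3 on the smoked array (2.11), and Cep250, a centrosome protein, 8.70 and 29.9 (2.03). Abcb8, a mitochondrial transporter, stood at 1.97, Grik5, a kainate receptor subunit, at 1.86, and Kcnj9, a potassium channel, at 1.77. Fancc, a Fanconi anaemia protein, stood at 1.76 in ICR and 1.62 in DBA, Ankrd11, a chromatin regulator, at 1.73, and Reg1 at 1.67. Second probe sets of Grik5 (-0.091) and Kcnj9 (-0.26) did not share the direction, and the 2 further probe sets of Zfp787 gave -0.083 and 0.14. Dim second probe sets gave 0.090 in ICR and -0.011 in DBA for Fancc, and 0.17 in ICR for Reg1.

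Genes that read below the constant on the ICR control form a separate group, because their size depends on that constant. A probe set of Actb, beta-actin, read 7.31 on the ICR control and 31.2 on the smoked array (2.20), against 532 to 1270 on the other 4 arrays. The array's own control probe set at the 3′ end of beta-actin read 6064 and 2736 on the same 2 arrays. Uchl1, a neuronal deubiquitinase (2.02), Src, the tyrosine kinase (1.79), and Fmnl1, a formin of blood cells (1.79), were the other genes of this kind among those above the signal filter and at least 2-fold higher under the 4 scalings.

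Among the lower genes, the 15 with the largest values ran from -1.59 to -2.43. The ICR control was the highest of the 6 arrays for 10 of the 15, and the ICR smoked array the lowest for 9. Sema3c, a secreted semaphorin that guides vessels and axons (chromosome 5), read 315 on the ICR control and 26.3 on the smoked array, with 74.1 to 219 on the other 4 arrays, a difference of -2.43. Tradd, the adaptor of TNF receptor 1, read 202 and 19.9, with 233 to 389 elsewhere (-2.14). Sema3c was thus at the top of the 6 arrays in the ICR control. For Tradd both ICR arrays had a lower deposited intensity than the other 4, and after normalization the ICR control (7.81) lay within their range and the smoked array (5.67) below it.

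Pdia3 and Tmed9 both work in the secretory pathway. Pdia3, a disulfide isomerase that folds glycoproteins in the endoplasmic reticulum, read 667 on the ICR control and 87.4 on the smoked array, with 332 to 690 elsewhere (-1.88). Tmed9, a cargo receptor between the endoplasmic reticulum and the Golgi, read 301 and 33.9 (-2.03), with 57.9 and 74.1 on the C57 arrays and 478 and 552 on the DBA arrays. Nr3c1, the glucocorticoid receptor, read 90.8 and 10.04 in ICR (-1.89), with 7.51 and 23.4 in C57 and 68.2 and 90.3 in DBA. For both Tmed9 and Nr3c1 the C57 arrays lay below the DBA arrays, so strain levels differed as well.

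Gna13, a G protein alpha subunit, read 628 on the ICR control and 93.6 on the smoked array, with 173 to 357 elsewhere (-1.71), and a second probe set gave -0.48. Kif5b, the heavy chain of kinesin (-1.65), and Dek, a chromatin protein (-1.63), had the same shape, with the ICR control at 410 and 553 and the smoked array at 63.5 and 87.1. Mrpl11, of the mitochondrial ribosome (-1.83), Plagl1, an imprinted zinc finger factor (-1.79), Itga8, an integrin of lung fibroblasts (-1.74), and Lepr, the leptin receptor (-1.61), were lower too. C1d (-1.66), Hltf (-1.63) and Lmnb1, a nuclear lamin (-1.59), complete the 15. Dim second probe sets of Plagl1 (0.12) and Itga8 (0.13) did not share the direction, and the 2 further probe sets of Hltf gave -1.05 and 0.097. Usp22, a deubiquitinase, read 71.4 on the ICR control and 1.29 on the smoked array, below the constant (-3.03).

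**Figure D4:**
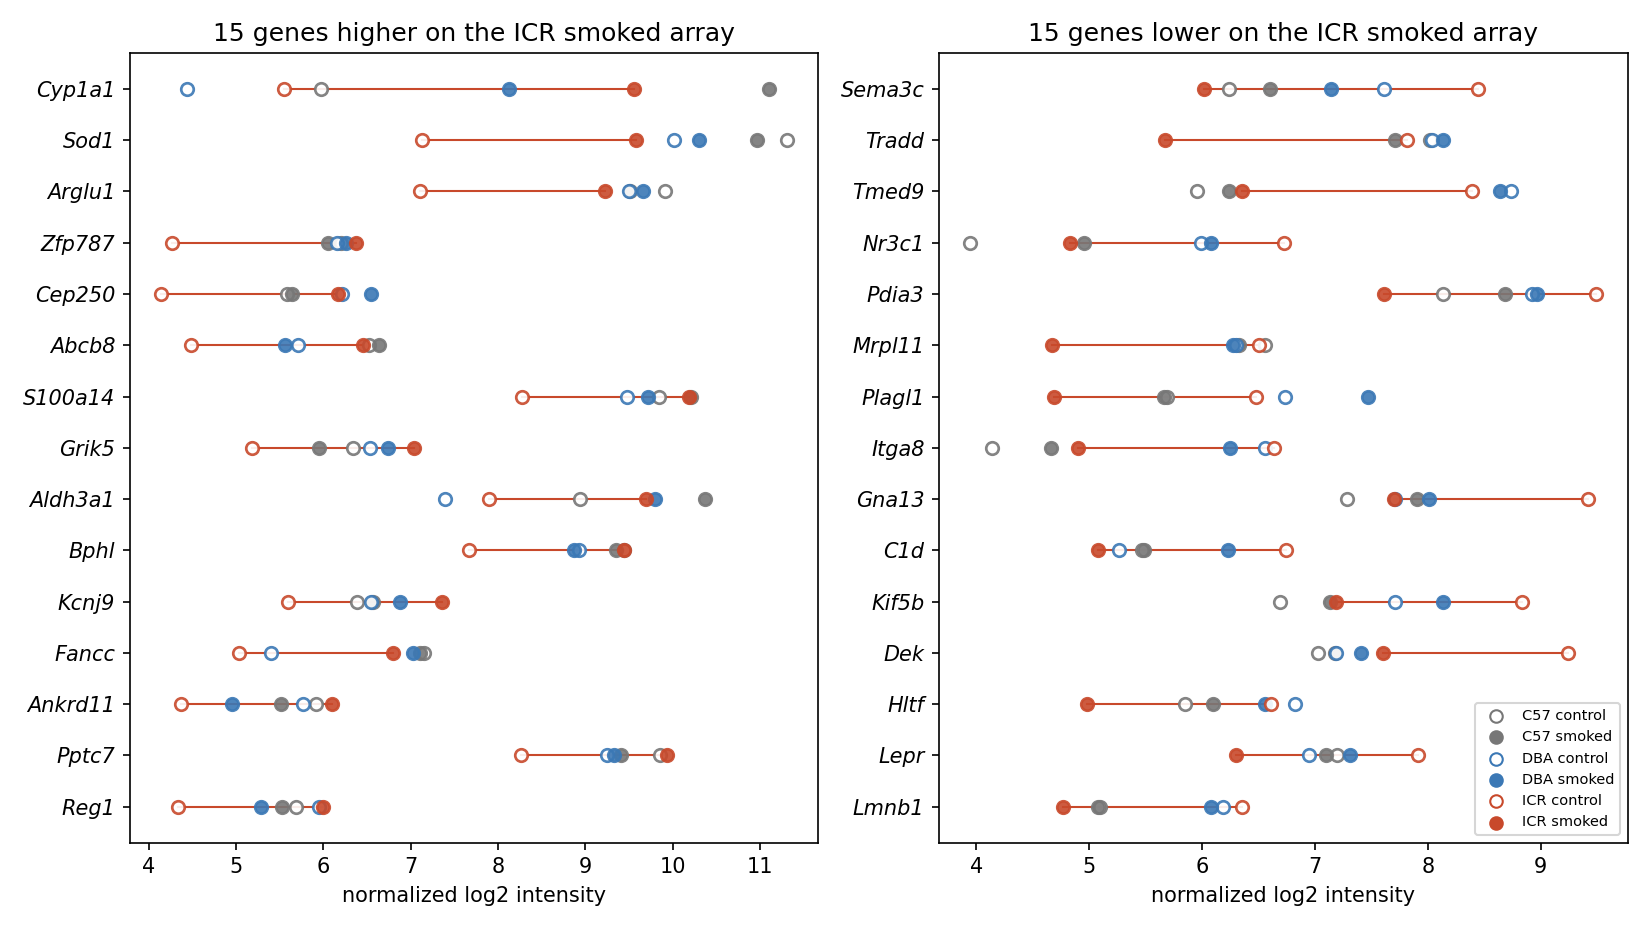
Normalized log2 intensity on the 6 arrays of the 15 genes with the largest higher (left) and lower (right) values on the ICR smoked array; open circles are control and filled circles smoked arrays, coloured by strain, and a line joins the 2 ICR arrays. The ICR control is the lowest point in 13 of 15 rows on the left and the highest in 10 of 15 on the right.

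The whole set of brighter probe sets had the same layout as these named genes. Of the 209 higher probe sets, the ICR control lay below all 4 C57 and DBA arrays in 174 (83.3%, against 31.4% of all 7453), and the ICR smoked array above all 4 in 118 (56.5%, against 27.6%). Of the 275 lower ones, the ICR control lay above all 4 in 192 (69.8%, against 29.7%), and the smoked array below all 4 in 158 (57.5%, against 24.3%). Choosing probe sets by the ICR difference itself moves these shares up, so they describe which array was extreme and carry no test. The control was outside the range with the smoked array inside it for 69 higher and 84 lower probe sets, and the reverse held for 22 and 59. Over all 7453 probe sets these numbers were 1784 and 1103. Both ICR arrays were outside the range for 110 higher and 116 lower probe sets, against 2765 of all.

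Features of the probe sets differed between the directions. Probe sets with the suffix _r_at, for which the manufacturer relaxed its design rules, made up 17.7% of the higher, 4.36% of the lower and 4.05% of all brighter probe sets. The median genomic span of the gene was 12.96 kb for 138 higher genes, 36.1 kb for 160 lower genes and 20.6 kb for all brighter genes with a span. The part of these features and of the 3′ to 5′ ratios in the differences was not tested. Of 64 genes with several bright probe sets and at least 1 higher, the others all shared the sign in 36 and a further probe set passed 2-fold in 2, Gnai2 and Ptpa. For the lower direction these numbers were 59 of 93 genes and 5, which were Ceacam1, Col3a1, Ctsc, Hic1 and Pdia6. These 7 genes were named after their values were seen. Over all brighter probe sets, 2.80% were at least 2-fold higher and 3.69% lower. Of all probe sets, 50.9% lay above 0. The counts for genes with several probe sets can be read against these shares.

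Genes of protein folding in the endoplasmic reticulum that passed 2-fold in ICR were lower. In the unfolded protein response list, which holds the sensors, chaperones and isomerases that the reticulum raises under folding load, 3 of 24 measured genes were at least 2-fold lower and 0 higher, 19 lay below 0, and the median was -0.22, while 51.1% of all genes lay above 0. The median was 0.06 in C57 and 0.08 in DBA. Over all 8251 genes 3.55% were at least 2-fold higher and 4.18% lower, and the counts of the lists that follow stand beside the same shares. Besides Pdia3, the genes of this list past 2-fold were Dnajb9, a co-chaperone (595 and 103, -1.48), and Pdia6, a disulfide isomerase (310 and 65.1, -1.21). Of 2 further Pdia6 probe sets 1 gave -1.42 and the other 0.15. Hspa5, the chaperone BiP, read 1381 and 506 (-0.49) in ICR, with 0.56 in C57 and 0.48 in DBA, and Xbp1, the factor that drives these genes, read 973 and 268 (-0.90). Hsp90b1, the chaperone GRP94, lay on the other side, at 1442 and 905 (0.21). The gap of Hspa5 to the other strains was -1.004 with a standard error of 0.25 and was not called (limma, adjusted p = 0.29).

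The heat shock and proteasome lists had medians below 0 as well. Of 24 heat shock genes 0 were at least 2-fold higher and 1 was lower, Dnajb4 (-1.33), and 17 lay below 0 with a median of -0.24. Hspa8, the constitutive HSC70, read 1564 and 554 (-0.59), and Hspd1, the mitochondrial chaperonin, 1032 and 519 (-0.06) in ICR with 0.81 in C57 and 0.74 in DBA. Of 31 proteasome subunits 0 passed 2-fold in either direction, 22 lay below 0, and the median was -0.24. These medians kept their sign under a common median and under loess, and relative to all genes with no scaling.

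Neutrophil genes that passed 2-fold in ICR were all lower. Of 16 neutrophil granule genes 0 were at least 2-fold higher and 3 were lower, Ngp, Mmp8 and Cxcr2, each of which read below the constant on the smoked array. In this list 12 genes lay below 0 and 4 above, the highest at 0.82. The neutrophil marker Camp stood at 0.42. The list's median was -0.37 in ICR, the lowest of the 50 lists on the quantile scale but above the proteasome, unfolded protein response and TGF-beta lists with a common median, and it was -0.03 in C57 and -2.60 in DBA. S100a8 and S100a9, the subunits of calprotectin, read 1449 and 471 (-0.67) and 1129 and 389 (-0.64). In a bulk lung sample, fewer cells of a type and less RNA per cell cannot be told apart. The differences of the ICR pair in S100a8 were small beside the -5.05 of the DBA pair, whose control array read 6766.

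In the macrophage list, 3 of 25 genes were at least 2-fold lower and 1 higher, with a median of -0.08. Lgals3, galectin 3 of activated macrophages, read 754 and 188 (-1.02), and Adgre1, the F4/80 antigen, 50.6 and 9.90 (-1.15). Marco, a scavenger receptor, read below the constant on the smoked array, and Msr1, another scavenger receptor, was dim at 15.4 and 19.6. Of 34 chemokine genes 1 was higher, Ccl17 (1.22), and 4 were lower, among them Ccr6 (-1.03), and the median was -0.07. Of 14 B cell genes 0 passed 2-fold, and the 3 of 23 T and NK cell genes that were higher, Klrk1, Cd3e and Cd8a, were all dim. In the T and NK cell list 0 genes were at least 2-fold lower, 13 lay above 0 and 10 below, and the median was 0.15. The T cell markers Cd3d (-0.77) and Cd3g (-0.07), also dim, lay below 0.

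Few genes of the lung epithelium lists passed 2-fold. Cavin1, a coat protein of caveolae, read 759 on the ICR control and 1036 on the smoked array, with 1947 to 3486 elsewhere (1.26), and was the 1 gene of 9 in the alveolar type I list past 2-fold. After normalization the ICR smoked array, at 10.95, lay within the C57 and DBA range of 10.79 to 11.59 for Cavin1. A dimmer second probe set of Cavin1 gave 0.10. The alveolar type I list had the highest median on the quantile scale, 0.34, and the AhR and squamous keratin lists lay above it with a common median. Ager within it stood at 0.24, Hopx at -0.29 and Cav1 at -0.25. Of 12 alveolar type II genes and of 14 club and goblet genes 0 passed 2-fold, with medians of 0.05 and 0.11. Sftpb read 2603 and 1113 (-0.53). The TGF-beta list of 30 genes had a median of -0.31 with 20 below 0 and 10 above, and 0 were at least 2-fold higher and 1 lower. In this list Ccn2, a matrix protein that the pathway induces, read 1156 and 415 (-0.60). Eng, its highest member, read 2769 and 3648 (0.83).

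Over all 50 lists, 1014 distinct genes were measured, and 29 were at least 2-fold higher and 43 lower. The list medians ran from -0.37 to 0.34, and 0 lists had a median of 0.5 or more in either direction on the quantile scale. With a common median the AhR list passed that size, at 0.67. The single members past 2-fold outside these groups include Hmgcs1, of cholesterol synthesis (566 and 132, -1.06), Rps19, a ribosomal protein (2235 and 503, -1.24), Junb, an immediate early factor (267 and 60.5, -1.08), and Btg2, a p53 target (418 and 459, 1.02). Higher in the lists of Rps19 and Hmgcs1 were Rpl32 (1.32) and Insig1 (1.16), both dim. The proportion of list genes past 2-fold can be read against the 3.55% and 4.18% of all genes.

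**Figure D5:**
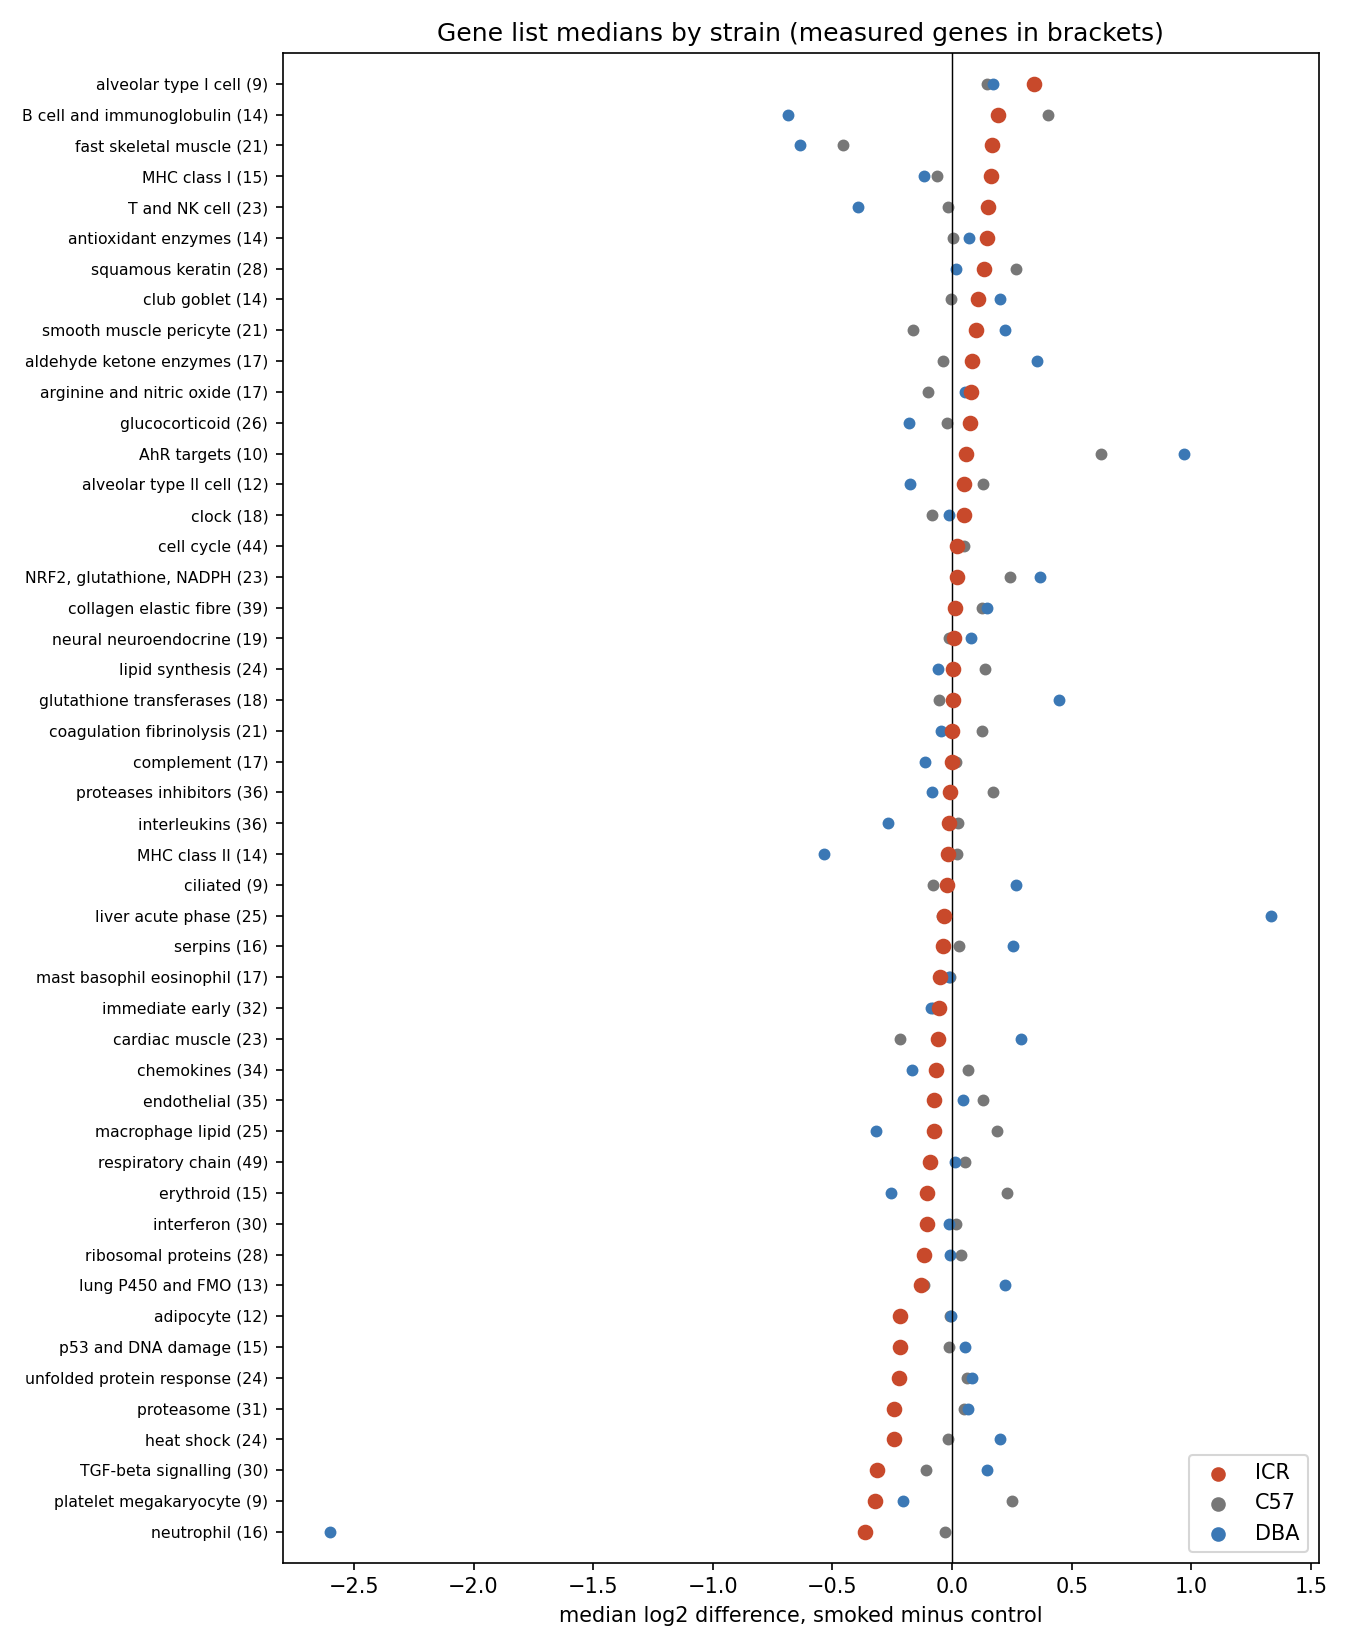
Median log2 difference, smoked minus control, of the 48 gene lists with at least 8 measured genes, in the ICR, C57 and DBA pairs. ICR medians lie between -0.37 and 0.34; the AhR targets stand at 0.06 in ICR, 0.62 in C57 and 0.97 in DBA on this quantile scale, and the ICR value is 0.67 with a common median.

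The ICR differences were set beside those of the other pairs, in which few of the 7453 probe sets passed 2-fold in a given direction (0.778% higher and 0.443% lower in C57, 0.684% and 2.39% in DBA). Of the 209 higher probe sets, 77 were also above 0 in C57 (36.8%, against 48.5% of all brighter probe sets) and 96 in DBA (45.9%, against 53.8%). At 2-fold, 5 were shared with C57, which is 2.39% of the ICR set and 8.62% of the C57 set of 58, and 4 with DBA, 1.91% of the ICR set and 7.84% of the DBA set of 51. A further 3 of the 209 were at least 2-fold lower in C57 and 7 in DBA. The 3 probe sets at least 2-fold higher in all 3 pairs were those of Cyp1a1, Aldh3a1 and Cyp1b1. The others shared with C57 were Nfkbie, an inhibitor of NF-kappaB (1.35 in ICR, 1.09 in C57 and -0.29 in DBA), and Madcam1, an adhesion molecule of vessels (1.08, 1.003 and -0.06), and the other shared with DBA was Fancc. A dim second probe set of Fancc gave 0.090 in ICR and -0.011 in DBA.

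Of the 275 lower probe sets, 103 were below 0 in C57 (37.5%, against 51.3%) and 98 in DBA (35.6%, against 46.0%), and 0 were at least 2-fold lower in all 3 pairs. At 2-fold, 2 were shared with the C57 set of 33, 1 with no gene symbol and that of Arih1, a ubiquitin ligase, and 7 with the DBA set of 178 (2.55% of the ICR set and 3.93% of the DBA set), near the 2.39% of all brighter probe sets. A further 5 of the 275 were at least 2-fold higher in C57 and 4 in DBA. The 7 include Ptprc, the common leukocyte antigen CD45 (-1.38 in ICR, 0.73 in C57 and -1.41 in DBA), Csf3r, the receptor of the neutrophil growth factor G-CSF (-1.23, 1.06 and -2.55), and Fpr2, a formyl peptide receptor of neutrophils (-1.22, 0.17 and -2.16). Pik3cd, the leukocyte form of PI3 kinase, stood at -1.71 in ICR, 0.78 in C57 and -1.41 in DBA, and Ngp, Pip4k2c and Ighv14-2 complete the 7. These shared genes were named after their values were seen. Across the 7453 probe sets, Pearson's r was -0.15 between the ICR and C57 differences, -0.06 between ICR and DBA, and -0.16 between C57 and DBA, as a description over probe sets normalized together.

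A limma model tested whether the ICR difference departed from that of C57 and DBA for each of the 7453 probe sets. It has 1 residual degree of freedom and takes the spread of the single ICR pair to be like that of the others. The standard errors and p-values rest on that assumption, which could not be tested. The median size of a difference was 0.34 in ICR, 0.19 in C57 and 0.20 in DBA. The model called 0 probe sets at an adjusted p under 0.05 (0%), with a smallest adjusted p of 0.29. An unadjusted p under 0.05 was found for 1076 (14.4%), 488 of them higher and 588 lower in ICR. The median standard error of this estimate was 0.35, on the log2 scale.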

How the data were processed

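Per the labels' protocols, biotin-labelled cRNA was made from Trizol-extracted lung RNA through cDNA primed with oligo(dT). The authors deposited a linear intensity for each of 12488 probe sets on 6 Affymetrix arrays (summary method and scaling: not given in the sources used here). The 66 control probe sets were left out, 8.05 (the 20th percentile of all values) was added before log2, and the arrays were quantile normalized. A filter at the 40th percentile of mean signal kept 7453 of 12422 probe sets for the test. No 2 arrays held the same values. Each of 8251 genes was represented by its brightest probe set on average among those with 1 symbol; of the probe sets, 10833 had 1 symbol, 396 several and 1193 none, and 10817 were matched by gene identifier to RefSeq. The ICR response was tested with limma 3.58.1 in R 4.3.3 (strain, smoke and an extra smoke effect for ICR, mean trend, 2-sided, Benjamini-Hochberg). A run on simulated data gave the ICR pair the same spread as the other pairs, so it could not check that assumption of the test. Tables used Python 3.11.15 with pandas 2.3.3.

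The genes named are the 15 largest in each direction among filtered genes above the constant on both ICR arrays and at least 2-fold under 4 scalings (quantile over all arrays or the ICR arrays, common median, loess); the largest with 1 side below the constant; list members past 2-fold or with the highest mean; and AhR genes, Actb and Gapdh. The members and gene lists were chosen with earlier results of these data known. With 1 array a side no spread between replicates can be given, and the number of arrays limits precision. Alternatives varied the constant, scaling, filter, fold, probe set choice and limma prior.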

Additional observations from a re-analysis of the deposited data

Results flagged for a closer look

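The ratio of 3′ to 5′ intensity of the control transcripts, which no comparison between groups uses, was higher on the ICR smoked array than on any control array. For beta-actin it was 4.75, against 1.46 to 2.75 on the other 5 arrays, and for Gapdh it was 2.39, against 0.952 to 1.69. The 3′ to middle ratio of Gapdh was 1.90 there and 1.05 to 1.32 elsewhere. That of beta-actin was 2.63, within the range of 1.18 to 2.87 of the other 5 arrays.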

How the results depend on the processing

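The count of 1069 probe sets at least 2-fold different in ICR moved with the processing. It was 240 with a constant of 32 and 2251 with a constant of 1. It was 3623 with no scaling, where the median of all genes was -0.75 so that smaller differences change sign, and 689 with loess. The filter at the 40th percentile left 484, that at the 60th 232, and values above the constant on both arrays 539 of 8632. A threshold of 1.5-fold gave 3432 and of 3-fold 150, and counting genes gave 638. It was 1136 with a common median, where the median probe set stood at 0.16, 732 with the ICR arrays normalized alone, and 800 of 9614 over plain _at probe sets, a choice made after seeing the data. The limma count was 1787 with no scaling (7 higher and 1780 lower), against 0, and 0 in the other settings run. Of 209 higher brighter probe sets 138, and of 275 lower 213, were at least 2-fold under all 4 scalings. Of 105 named genes past 2-fold, 25 were under it with a common median, 25 with loess, 22 with the ICR arrays alone, 60 with a constant of 32 and 34 with no scaling. The cause of these shifts was not tested. Other probe sets of the gene reversed 19 of 43 values, in Cyp1a1 (-1.16), Zfp787 (-0.083), Grik5 (-0.091), Bphl (-0.13 and -0.12), Kcnj9 (-0.26), Cyp1b1 (-0.55), Msr1 (-0.49), Mylpf (-0.00117), Bub1 (0.12 and 0.44), Ctsc (0.35), Gfap (0.51), Pdia6 (0.15), Ucp1 (0.67), Proc (0.14), Hltf (0.097), Itga8 (0.13) and Plagl1 (0.12). Of the 43 values, a further 19 kept the sign but were under 2-fold at another probe set, and 5 passed 2-fold in the same direction. No paired analysis was possible because every group has the single replicate number 1. The limma test could not be fitted without an array, since no residual degree of freedom is left. Signal over background limits the ICR smoked array, where 28.7% of probe sets read below the constant, against 20.6% on the control.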
